A study of Mus musculus with 8 samples.

Results

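The 9 genes described here encode the enzymes that make serine and pass its carbon into the folate cycle: Phgdh, Psat1, Psph, Shmt1, Shmt2, Mthfd1, Mthfd1l, Mthfd2 and Aldh1l2. They were taken by symbol from a table of raw exon counts of 24537 genes, where each of the 9 had 1 entry, and all 9 passed the filter on low counts. RNA was measured in pancreatic islets, the hormone-secreting cell clusters of the pancreas, from male mice aged 12 weeks, with 4 Wfs1KO samples and 4 WT samples. Wolframin, the product of Wfs1, sits in the membrane of the endoplasmic reticulum, and its loss causes Wolfram syndrome. The islets were freed with collagenase and purified on a density gradient, and polyadenylated RNA was sequenced. How the knockout allele was made, the strain of the mice, and whether a sample is 1 mouse or a pool are not given in the sources used here.

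Serine is made from an intermediate of glycolysis in a chain of reactions. Phgdh oxidises phosphoglycerate, Psat1 moves an amino group onto the product from glutamate, and Psph removes the phosphate to leave serine. The folate cycle then runs in parallel in mitochondria and in the cytosol. In mitochondria, Shmt2 splits serine into glycine and a carbon unit bound to tetrahydrofolate, Mthfd2 oxidises that unit, Mthfd1l releases it as formate, and Aldh1l2 can burn it to carbon dioxide while making NADPH. In the cytosol, Mthfd1 takes formate up again for purine, thymidylate and methionine synthesis, and Shmt1 joins serine and glycine. Several genes of serine synthesis and of the mitochondrial arm are known targets of ATF4, the transcription factor of the integrated stress response, in mouse and human cells.

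Exon counts per library lay between 15810830 and 27057617. Wfs1 itself still had reads in the Wfs1KO libraries, with 98.9 to 125 CPM (counts per 1000000 counts of the TMM-scaled library size) against 156 to 190 CPM in WT libraries. Its log2 fold change of Wfs1KO over WT was -0.74 (SE 0.08, adjusted p = 5.06e-05). Every adjusted p of a gene, here and below, is from the quasi-likelihood test of edgeR. A gene was called, and is said to have risen or fallen, where this p, adjusted over all 15733 tested genes by the Benjamini-Hochberg method, was under 0.05. Islet identity was checked with 8 beta cell markers, which together took 10.7% to 13.8% of exon counts in Wfs1KO and 14.998% to 19.4% in WT. Of these, 7 fell and 1 rose. In bulk islets, fewer cells of a type and less RNA per cell cannot be told apart, and this holds for every value below. Genes that mark acinar cells, which surround islets and secrete digestive enzymes, took 1.05% to 6.70% of exon counts in Wfs1KO and 3.17% to 6.77% in WT, and of 11 tested acinar markers 0 were called (0 by DESeq2, and 0 at an unadjusted p under 0.05). Endothelial markers (11 of 12 rose) took 0.0865% to 0.104% in Wfs1KO and 0.0606% to 0.0655% in WT. Stellate cell markers (4 of 12 rose) took 0.0335% to 0.0422% in Wfs1KO and 0.0202% to 0.0275% in WT. Of 8 macrophage markers 0 were called (0 by DESeq2, and 0 at an unadjusted p under 0.05), with 0.00967% to 0.0224% in Wfs1KO and 0.0086% to 0.0146% in WT. Of 7 ductal markers 1 rose and 1 fell, with 0.0348% to 0.0415% in Wfs1KO and 0.035% to 0.0386% in WT. Of 6 alpha cell markers 0 were called (0 by DESeq2, and 1 at an unadjusted p under 0.05), with 1.92% to 2.74% in Wfs1KO and 1.59% to 1.95% in WT, and of 3 delta cell markers 2 rose, with 0.227% to 0.336% in Wfs1KO and 0.201% to 0.226% in WT. With the acinar share as a covariate 6 of the 9 genes were called higher and 1 lower, as without it. The part of the other cell types in the values below was not tested.

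Of the 9 genes, 6 rose, 1 fell and 2 did not pass. Over all tested genes 10.4% were called higher and 8.49% lower. The median log2 fold change of the 9 was 0.61, against 0.01 over all tested genes. The 9 were chosen with earlier results of these data known, so comparisons with all tested genes are descriptions and no test of the set. All 3 genes of serine synthesis rose, as did 3 of the 4 of the mitochondrial folate arm, while the cytosolic Mthfd1 fell. With the replicate number as a block 5 rose and 1 fell, since Mthfd2 no longer passed (adjusted p = 0.0877). In 6 of the 9 every Wfs1KO library lay above every WT library, and in 1 every Wfs1KO library lay below, where 12.3% and 10.3% of all tested genes did so.

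**Figure D1:**
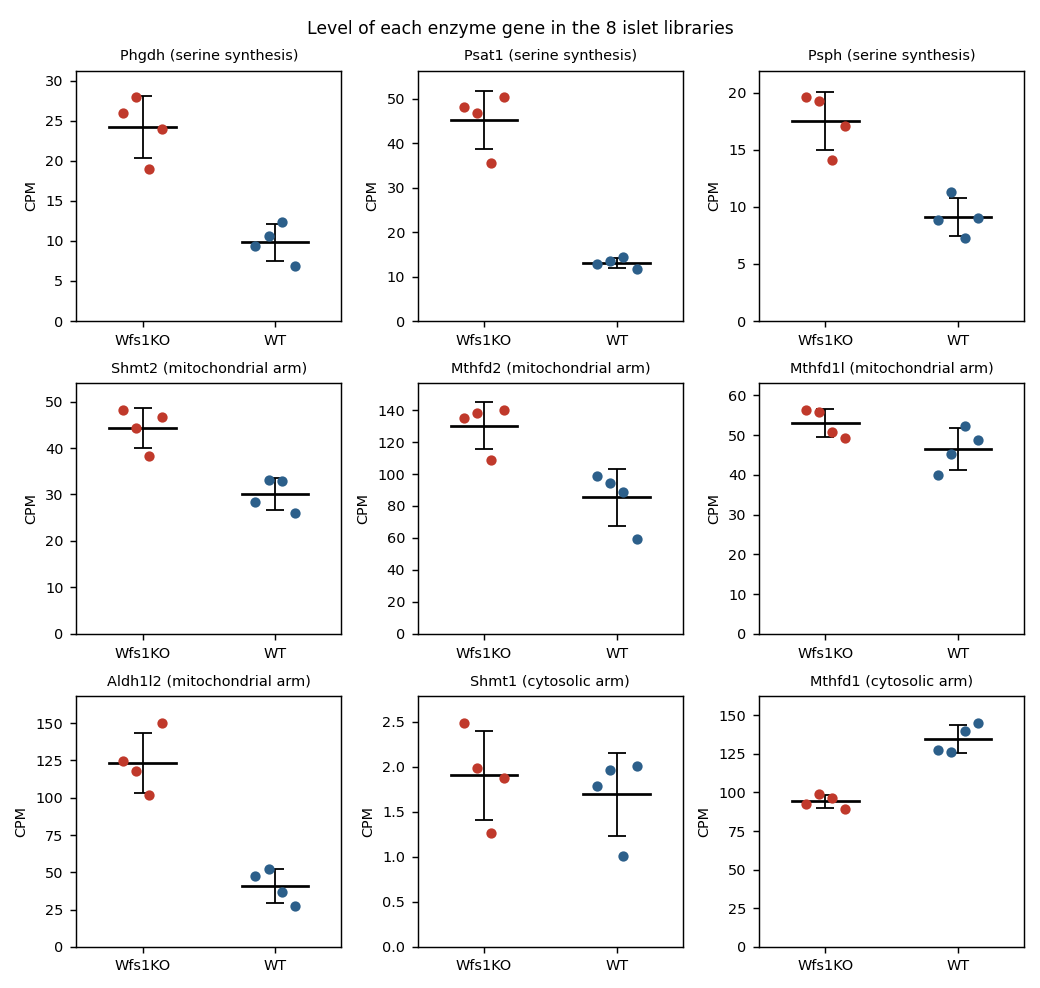
Level of each of the 9 genes in CPM (vertical axes, starting at 0) in the 4 Wfs1KO libraries (left, red) and the 4 WT libraries (right, blue). Points are libraries in replicate order, the bar is the mean and the whiskers 1 SD. The groups overlap in Mthfd1l and Shmt1, lie apart with Wfs1KO above WT in 6 genes, and lie apart with Wfs1KO below WT in Mthfd1.

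The promoters of Psat1 and Phgdh, the serine synthesis genes with the largest rises, of Mthfd2, the most abundant mitochondrial member, and of Mthfd1, the only member that fell, are shown to give the sequence context of genes that moved together or apart. Each is the stretch of 250 bases before the gene's start in RefSeq (GRCm38.p6, the build called mm10), 5′ to 3′ on the gene's own strand. Capitals mark the CCAAT box, found as CCAAT or, on the other strand, ATTGG.
Psat1, chr19:15925060-15925309, minus strand: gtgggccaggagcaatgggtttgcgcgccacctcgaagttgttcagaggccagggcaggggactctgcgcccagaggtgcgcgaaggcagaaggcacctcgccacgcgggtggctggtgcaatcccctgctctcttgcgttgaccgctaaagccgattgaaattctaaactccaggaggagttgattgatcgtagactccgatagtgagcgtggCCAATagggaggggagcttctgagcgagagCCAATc
Phgdh, chr3:98339970-98340219, minus strand: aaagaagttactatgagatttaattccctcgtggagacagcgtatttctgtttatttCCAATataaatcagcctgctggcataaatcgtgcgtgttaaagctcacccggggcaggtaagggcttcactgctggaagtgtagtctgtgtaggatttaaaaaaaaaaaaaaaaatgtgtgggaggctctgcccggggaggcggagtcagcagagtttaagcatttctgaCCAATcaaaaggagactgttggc
Mthfd2, chr6:83317605-83317854, minus strand: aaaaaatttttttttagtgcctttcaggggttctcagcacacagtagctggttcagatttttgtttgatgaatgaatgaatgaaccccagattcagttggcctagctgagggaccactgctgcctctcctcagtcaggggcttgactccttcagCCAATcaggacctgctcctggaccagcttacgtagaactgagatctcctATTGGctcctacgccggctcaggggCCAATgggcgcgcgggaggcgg
Mthfd1, chr12:76254982-76255231, plus strand: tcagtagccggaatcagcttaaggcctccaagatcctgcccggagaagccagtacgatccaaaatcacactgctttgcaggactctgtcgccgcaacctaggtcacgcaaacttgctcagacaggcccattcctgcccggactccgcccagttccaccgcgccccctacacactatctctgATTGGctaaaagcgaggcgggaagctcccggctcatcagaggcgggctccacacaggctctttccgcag

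Psat1 held CCAAT boxes that begin 36 and 6 bases before this start, while the stretch before its other RefSeq start (15924622) held 0. The boxes of Phgdh began at 193 and 23 bases, those of Mthfd2 at 96, 47 and 22, and that of Mthfd1 at 69. Of the 9 genes, 8 had a promoter in the table, and 6 of these 8 held at least 1 CCAAT box in the stretch (the first listed for Psat1). Cut to the same length, 33.8% of all 32851 RefSeq windows held a box, and 35.8% of windows with 1 per tested gene. The stretch of Shmt2, which rose, held 0 boxes, and that of Shmt1, which did not pass, held 1. The CCAAT box was chosen after the sequences were seen. The core of the C/EBP-ATF response element, to which ATF4 dimers bind, was searched as TGATGNAA on both strands and was found in 0 of the 8 and in 3.45% of all windows. At so low a share 0 of 8 is the usual outcome, so this count cannot say whether these genes differ from others in this element. Sequence further away or inside the genes was not searched. GENCODE M21 has other outermost starts for these genes, at 15947337 for Psat1, 98339990 for Phgdh and 83325908 for Mthfd2, all upstream of the RefSeq starts used, and at 76255298 for Mthfd1, downstream of it.

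The serine synthesis genes were 1.92 to 3.48 times as abundant in Wfs1KO as in WT. Psat1 (NM_177420, chromosome 19, 15905123 to 15925059, minus strand), the aminotransferase, stood at 48.3, 46.7, 35.7 and 50.3 CPM in Wfs1KO replicates 1 to 4, against 12.8, 13.6, 14.3 and 11.6 CPM in WT replicates 1 to 4. Every Wfs1KO library was above every WT library, the lowest of them, replicate 3, at 2.49 times the highest WT library. Psat1 rose 3.48-fold (95% interval 2.96 to 4.09, log2 fold change 1.80, SE 0.11, adjusted p = 4.41e-07), the 35th largest log2 fold change of 15733. It was also called within replicates 1 and 2 alone (1.83) and within replicates 3 and 4 alone (1.735, adjusted p = 0.00811). These pairs are given because the first principal component, with 37.9% of the variance, parted them in both genotypes.

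Phgdh (NM_016966, chromosome 3, 98313171 to 98339969, minus strand), the dehydrogenase that commits carbon to the pathway, stood at 26.0, 27.9, 19.0 and 23.9 CPM in Wfs1KO replicates 1 to 4, against 9.36, 10.7, 12.4 and 6.92 CPM in WT replicates 1 to 4. The groups lay apart, although the WT libraries were spread over a wider relative range (coefficient of variation 15.9% in Wfs1KO and 23.4% in WT). Phgdh rose 2.49-fold (1.92 to 3.23, log2 fold change 1.32, SE 0.17, adjusted p = 4.17e-04). Within replicates 1 and 2 the log2 fold change was 1.41, and within replicates 3 and 4 it was 1.18 with an adjusted p of 0.121. GENCODE lists a processed pseudogene, Phgdh-ps1, and how reads shared with it were counted is not given in the sources used here.

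Psph (NM_133900, chromosome 5, 129765558 to 129787253, minus strand), the phosphatase of the last step, stood at 19.6, 19.3, 14.1 and 17.1 CPM in Wfs1KO replicates 1 to 4, against 8.88, 11.3, 7.29 and 9.03 CPM in WT replicates 1 to 4. Wfs1KO replicate 3 was again the lowest of its group and still above the highest WT library, replicate 2. Psph rose 1.92-fold (1.57 to 2.34, log2 fold change 0.94, SE 0.13, adjusted p = 3.30e-04). Its exons overlap those of Cct6a on the other strand over at most 452 bases, and the counting command names no strand option, so that reads there cannot be assigned to either gene. Cct6a averaged 119.9 CPM in Wfs1KO and 119.4 CPM in WT (log2 fold change 0.01, adjusted p = 0.957).

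In the mitochondrial folate arm, Aldh1l2 changed most. Aldh1l2 (NM_153543, chromosome 10, 83487447 to 83534140, minus strand), which oxidises formyl-tetrahydrofolate, stood at 124.7, 118, 101.6 and 150.0 CPM in Wfs1KO replicates 1 to 4, against 47.4, 51.9, 36.7 and 27.0 CPM in WT replicates 1 to 4. The lowest Wfs1KO library had 1.96 times the level of the highest WT library. Aldh1l2 rose 3.04-fold (2.11 to 4.37, log2 fold change 1.60, SE 0.22, adjusted p = 0.00263). The log2 fold change was 1.27 within replicates 1 and 2 and 1.985 within replicates 3 and 4 (adjusted p = 0.0894), and the difference between these pairs was not tested. It shares up to 1056 exon bases with D10Wsu102e on the other strand, which averaged 23.8 CPM in Wfs1KO and 21.8 CPM in WT (log2 fold change 0.12, adjusted p = 0.222).

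Shmt2 (NM_028230, chromosome 10, 127517123 to 127522444, minus strand), the entry enzyme, stood at 48.1, 44.2, 38.2 and 46.8 CPM in Wfs1KO replicates 1 to 4, against 28.4, 33.1, 32.8 and 26.0 CPM in WT replicates 1 to 4. The groups did not overlap, with Wfs1KO replicate 3 at 1.15 times the highest WT library. Shmt2 rose 1.48-fold (1.29 to 1.695, log2 fold change 0.57, SE 0.09, adjusted p = 7.71e-04), and both pairs of replicates passed alone (0.57 in replicates 1 and 2, and 0.53, adjusted p = 0.0395, in replicates 3 and 4). Its exons meet those of Ndufa4l2 on the other strand over 32 bases, and Ndufa4l2 averaged 4.50 CPM in Wfs1KO and 3.21 CPM in WT.

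Mthfd2 (NM_008638, chromosome 6, 83305704 to 83317604, minus strand), the mitochondrial dehydrogenase and cyclohydrolase, stood at 134.8, 138, 108.5 and 139.8 CPM in Wfs1KO replicates 1 to 4, against 98.9, 94.6, 88.9 and 59.2 CPM in WT replicates 1 to 4. Every Wfs1KO library was above every WT library, but Wfs1KO replicate 3 and WT replicate 4 each lay well below the rest of their group. Mthfd2 rose 1.53-fold (1.18 to 1.98, log2 fold change 0.61, SE 0.16, adjusted p = 0.0341). The call was lost without Wfs1KO replicate 1, 2 or 4 or WT replicate 2 or 3 (adjusted p 0.0562 to 0.0886), with the replicate number as a block (log2 fold change 0.63, adjusted p = 0.0877) and with no filter on low counts (0.62, adjusted p = 0.0601). Within replicates 1 and 2 it was 0.47 (adjusted p = 8.84e-05) and within replicates 3 and 4 0.745 (adjusted p = 0.319).

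Mthfd1l (NM_172308, chromosome 10, 3973075 to 4156130, plus strand), which releases formate, did not pass. It stood at 56.2, 55.8, 50.7 and 49.3 CPM in Wfs1KO replicates 1 to 4, against 39.9, 45.2, 52.3 and 48.7 CPM in WT replicates 1 to 4, and the groups overlapped. The log2 fold change was 0.19 (95% interval 0.02 to 0.36, adjusted p = 0.114). Within replicates 1 and 2 it was 0.38 (adjusted p = 0.00278), and within replicates 3 and 4 it was -0.02 (adjusted p = 0.904). Without WT replicate 3 it was 0.25 with an adjusted p of 0.0493.

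In the cytosolic arm, Mthfd1 moved the other way. Mthfd1 (NM_138745, chromosome 12, 76255232 to 76319820, plus strand), the trifunctional enzyme that activates formate, stood at 92.2, 99.2, 96.1 and 89.4 CPM in Wfs1KO replicates 1 to 4, against 127.7, 126.2, 139.5 and 144.9 CPM in WT replicates 1 to 4. All Wfs1KO libraries were below all WT libraries, and the spread within groups was the smallest among the 9 genes (coefficient of variation 4.55% in Wfs1KO and 6.76% in WT). Mthfd1 fell to 0.70 of its WT level (0.64 to 0.77, log2 fold change -0.51, SE 0.06, adjusted p = 5.40e-05), and both pairs of replicates passed alone (-0.43 in replicates 1 and 2, and -0.625 in replicates 3 and 4). Its exons meet those of Gm47525 on the other strand over 37 bases.

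Shmt1 (NM_009171, chromosome 11, 60788897 to 60811265, minus strand), the cytosolic counterpart of Shmt2, was the least abundant of the 9. It had 71, 41, 22 and 38 counts in Wfs1KO replicates 1 to 4, against 34, 34, 15 and 41 counts in WT replicates 1 to 4. In CPM these were 2.49, 1.98, 1.27 and 1.88 in Wfs1KO, against 1.79, 1.96, 1.01 and 2.01 in WT, and the groups overlapped. The fold change was 1.13 with a 95% interval of 0.73 to 1.73 (adjusted p = 0.745). Shmt1 shares up to 184 exon bases with Smcr8 on the other strand, which averaged 71.6 CPM in Wfs1KO and 73.5 CPM in WT. Reads there cannot be assigned to either gene. Their part in the low Shmt1 counts, and so in the ratio of Shmt2 to Shmt1 below, was not tested.

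**Figure D2:**
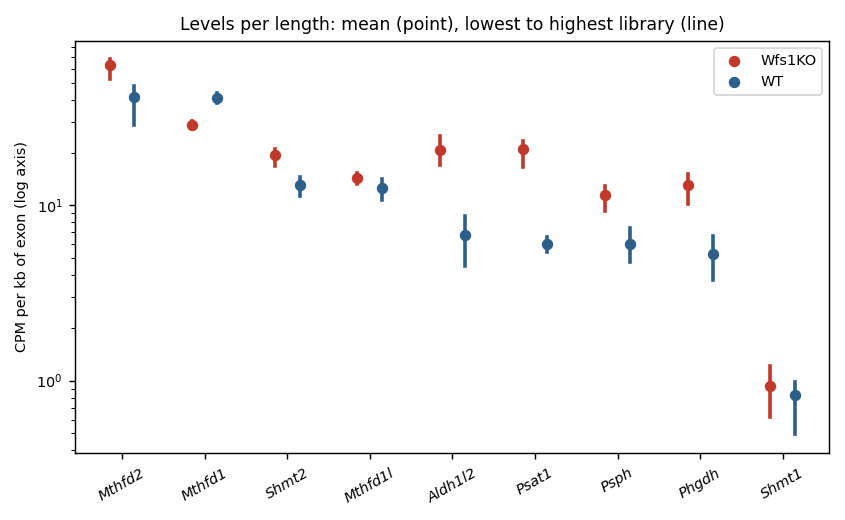
Level per exon length of the 9 genes (horizontal axis, ordered by the WT mean) in CPM per kb on a log axis. Points are the means of 4 Wfs1KO (red, left of each pair) and 4 WT libraries (blue), and lines run over the lowest to the highest library. Mthfd2 and Mthfd1 are level in WT and apart in Wfs1KO, and Shmt1, at 0.929 in Wfs1KO and 0.826 in WT, is below all others in both groups.

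Between genes, levels were compared per kilobase of exon, with the exon lengths of the count table. In Wfs1KO the order of mean levels was Mthfd2 (63.2 ± 7.12 CPM per kb, SD, n = 4), Mthfd1 (28.6 ± 1.303), Psat1 (20.9 ± 3.04), Aldh1l2 (20.6 ± 3.35), Shmt2 (19.3 ± 1.92), Mthfd1l (14.3 ± 0.959), Phgdh (13.0 ± 2.07), Psph (11.5 ± 1.64) and Shmt1 (0.929 ± 0.243). In WT it was Mthfd2 (41.5 ± 8.71 CPM per kb), Mthfd1 (40.8 ± 2.76), Shmt2 (13.1 ± 1.52), Mthfd1l (12.6 ± 1.43), Aldh1l2 (6.79 ± 1.86), Psat1 (6.05 ± 0.529), Psph (5.98 ± 1.08), Phgdh (5.29 ± 1.24) and Shmt1 (0.826 ± 0.226). Psat1 and Aldh1l2 stood after Shmt2 and Mthfd1l in the WT order and before both in the Wfs1KO order. The ranges of neighbours overlapped in Wfs1KO for Psat1 and Aldh1l2, for Aldh1l2 and Shmt2, for Mthfd1l and Phgdh, and for Phgdh and Psph. In WT they overlapped for Mthfd2 and Mthfd1, for Shmt2 and Mthfd1l, and along the run from Aldh1l2 through Psat1 and Psph to Phgdh.

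Within each library the mitochondrial and cytosolic arms could be set against each other free of scaling between libraries. The ratio of Mthfd2 to Mthfd1 per length was 2.34, 2.22, 1.81 and 2.50 in Wfs1KO replicates 1 to 4, against 1.24, 1.20, 1.02 and 0.653 in WT replicates 1 to 4. Every Wfs1KO library had more Mthfd2 than Mthfd1 by this measure, and the groups did not overlap. The log2 ratio was 1.14 higher in Wfs1KO. This is a description without a test, since Mthfd2 and Mthfd1 each already lay apart in opposite directions.

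The ratio of Mthfd1l to Mthfd1 was 0.543, 0.501, 0.469 and 0.491 in Wfs1KO replicates 1 to 4, against 0.279, 0.319, 0.334 and 0.299 in WT replicates 1 to 4. These groups lay apart, and the log2 ratio was 0.70 higher in Wfs1KO, with log2 fold changes of -0.51 for Mthfd1 and 0.19 for Mthfd1l, which did not pass. The lowest WT library had 1.27 times the Mthfd1 level of the highest Wfs1KO library. For Mthfd1l, the lowest Wfs1KO library had 0.942 of the level of the highest WT library. With these levels the ratios had to lie apart, so this too is a description without a test. The ratio of Shmt2 to Shmt1 was 17.3, 19.96, 26.9 and 22.3 in Wfs1KO replicates 1 to 4, against 14.2, 15.1, 29.0 and 11.6 in WT replicates 1 to 4, with WT replicate 3 the highest of all 8. The log2 difference was 0.38, the groups overlapped, and the ratio rests on the few Shmt1 counts.

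**Figure D3:**
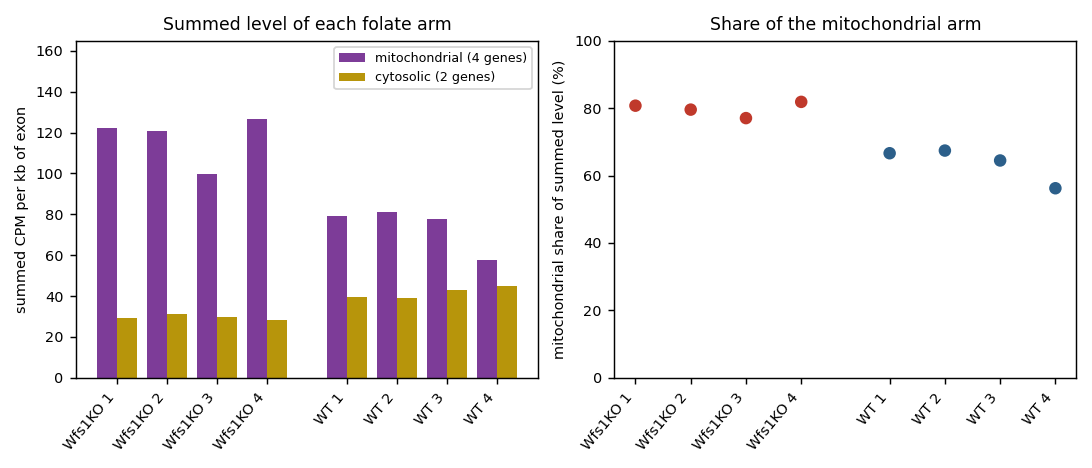
Left, summed level of the 4 mitochondrial genes (purple) and the 2 cytosolic genes (gold) in CPM per kb of exon, for each library, Wfs1KO left of WT. Right, the mitochondrial share of both sums in percent, from 77.0% to 81.9% in Wfs1KO (red) and from 56.2% to 67.4% in WT (blue).

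Summed per length, the 4 mitochondrial genes reached 117.5 ± 11.9 CPM per kb in Wfs1KO and 74.0 ± 10.9 in WT, and the 2 cytosolic genes 29.5 ± 1.26 in Wfs1KO and 41.7 ± 2.72 in WT (SD, n = 4 each). The mitochondrial share of both sums was 80.7%, 79.6%, 77.0% and 81.9% in Wfs1KO replicates 1 to 4. In WT replicates 1 to 4 this share was 66.6%, 67.4%, 64.5% and 56.2%. The groups did not overlap, and the means differed by 16.1 percentage points. Serine synthesis summed to 45.5 ± 6.37 CPM per kb in Wfs1KO and 17.3 ± 1.88 in WT. These sums are descriptions without a test, since the genes were chosen with results known. Mthfd1 alone, at 28.6 CPM per kb in Wfs1KO and 40.8 in WT, made up nearly all of the cytosolic sum. Other genes of the arms were not summed, such as Sfxn1 (34.5 in Wfs1KO and 30.1 in WT) and the cytosolic Ggh (29.3 and 26.8). The shares therefore rest on the choice of genes.

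The same libraries were often at the edge of their group. Wfs1KO replicate 3 was the lowest of its group in 7 of the 9, all but Mthfd1l and Mthfd1, and it had the lowest acinar marker share of all libraries (1.05%). WT replicate 4 was the lowest of its group in 5 (Phgdh, Psat1, Shmt2, Mthfd2 and Aldh1l2), the highest in Mthfd1 and Shmt1, and had the highest beta cell marker share (19.4%). The part of these shares in the levels was not tested.

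**Figure D4:**
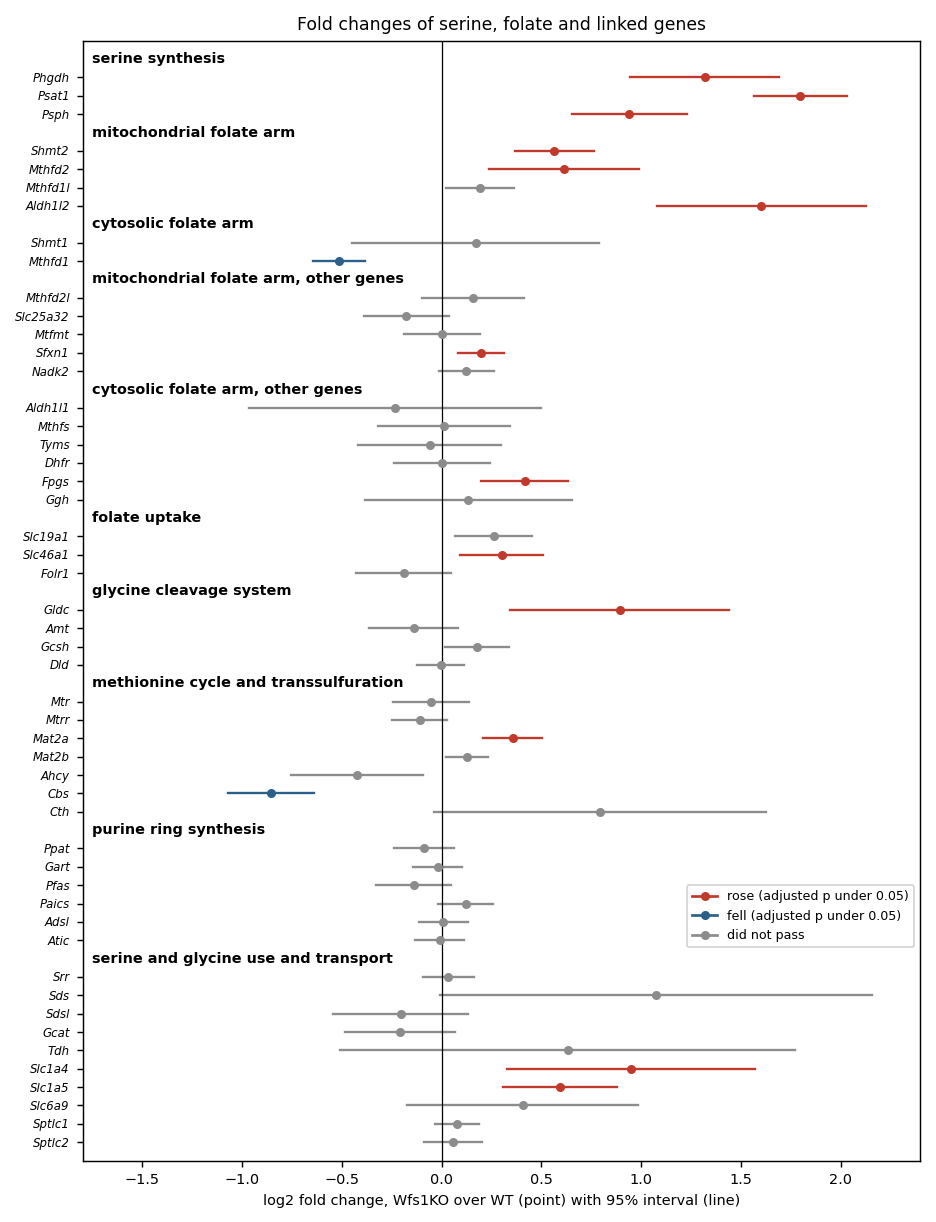
Log2 fold change of Wfs1KO over WT (points, horizontal axis) with its 95% interval (lines) for the 9 genes and 41 other tested genes of serine, glycine, folate, methionine and purine metabolism, by list. Red genes rose, blue genes fell and grey genes did not pass. Psat1, Aldh1l2 and Phgdh have the largest values, and the 6 purine genes lie between -0.14 and 0.12.

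Of 42 other genes of serine, glycine, folate, methionine and purine metabolism 41 were tested, of which 7 rose, 1 fell and 33 did not pass, where 10.4% of all tested genes were called higher and 8.49% lower. Their median log2 fold change was 0.03. Bhmt was left out by the filter. Of 5 other mitochondrial folate genes 1 rose, Sfxn1, a mitochondrial serine carrier and the most abundant of this list per exon length in WT, the measure also used for the lists below. It had a log2 fold change of 0.20 (adjusted p = 0.0210), which was not called without Wfs1KO replicate 3 or 4 or WT replicate 4 (adjusted p 0.0532 to 0.0877), with no filter (0.0509), or in either pair of replicates alone (0.282 in replicates 1 and 2, and 0.0702 in replicates 3 and 4). Mthfd2l, the paralog of Mthfd2, averaged 6.09 ± 0.215 CPM in Wfs1KO and 5.44 ± 0.555 CPM in WT (adjusted p = 0.404). Slc25a32, the mitochondrial folate carrier, stood at -0.18 (adjusted p = 0.252).

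Of 6 other cytosolic folate genes 1 rose and 0 fell. Fpgs, which adds glutamate to folates and so keeps them in cells, rose to 22.8 ± 1.73 CPM in Wfs1KO, against 17.1 ± 2.79 CPM in WT (log2 fold change 0.42, adjusted p = 0.0105). Ggh, the most abundant of this list, stood at 0.13 (adjusted p = 0.744), and Aldh1l1, the cytosolic counterpart of Aldh1l2, at -0.23 with an interval of -0.97 to 0.50. Exons of Fpgs overlap those of Eng, an endothelial gene, on the other strand, and reads there cannot be assigned to either. Eng stood at 92.4, 78.1, 92.6 and 87.8 CPM in Wfs1KO replicates 1 to 4, against 50.6, 49.6, 62.2 and 58.2 CPM in WT replicates 1 to 4, and rose as well (log2 fold change 0.67, adjusted p = 7.28e-05). Its part in the Fpgs value was not tested. Of 3 folate uptake genes, Slc46a1, the proton-coupled folate transporter, rose (0.30, adjusted p = 0.0456), but not with the replicate block (adjusted p = 0.0815), DESeq2 (0.106), DESeq2's size factors (0.0559), no filter (0.0912) or the 20 most abundant genes left out (0.0537). It was also lost on leaving out each library in turn except WT replicate 3 (0.0727 to 0.107). Folr1, the most abundant of these, stood at -0.19 (adjusted p = 0.264).

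Of the 4 genes of the glycine cleavage system 1 rose, Gldc, the glycine decarboxylase. It had 5.11, 4.98, 3.75 and 3.22 CPM in Wfs1KO replicates 1 to 4, against 1.79, 1.85, 1.82 and 3.68 CPM in WT replicates 1 to 4, and WT replicate 4 was above Wfs1KO replicate 4. Its log2 fold change was 0.89 (adjusted p = 0.0259), with 1.45 within replicates 1 and 2 and 0.30 (adjusted p = 0.624) within replicates 3 and 4, and the call was lost without Wfs1KO replicate 1 or 2 or WT replicate 1, 2 or 3 (0.0693 to 0.0819). Dld, the most abundant, stood at -0.004 (adjusted p = 0.969).

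In the methionine cycle and transsulfuration, 7 of 8 genes were tested, 1 rose and 1 fell. Cbs, which joins serine to homocysteine, stood at 27.1, 29.1, 28.4 and 37.7 CPM in Wfs1KO replicates 1 to 4. In WT replicates 1 to 4 it stood at 56.7, 48.6, 57.8 and 57.7 CPM. The groups lay apart and Cbs fell to 0.55 of its WT level (0.48 to 0.64, log2 fold change -0.85, SE 0.10, adjusted p = 1.11e-04). Mat2a, which makes S-adenosylmethionine, rose by a log2 fold change of 0.36 (adjusted p = 0.00235). Exons of Mat2a overlap those of Particl on the other strand over at most 506 bases, and reads there cannot be assigned to either gene. The part of such reads in the Mat2a value was not tested. Mat2b, the most abundant of this list per exon length, stood at 0.13 (adjusted p = 0.0854). Of 6 genes of purine ring synthesis, which uses formyl folate, 0 were called by edgeR, 0 by DESeq2 and 0 at an unadjusted p under 0.05. Paics, the most abundant, stood at 0.12 (adjusted p = 0.219).

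Of 10 genes that use or carry serine and glycine 2 rose and 0 fell. Slc1a5, a carrier of glutamine and other neutral amino acids, rose to 15.2 ± 2.78 CPM in Wfs1KO, against 10.1 ± 1.32 CPM in WT (log2 fold change 0.60, adjusted p = 0.00669). Slc1a4, a carrier of serine and alanine, rose to 56.4 ± 8.36 CPM, against 29.3 ± 9.31 CPM (0.95, adjusted p = 0.0473). Its call was lost with the replicate block (adjusted p = 0.184) and with no filter (0.0808). At the threshold, the call was also lost with DESeq2's size factors (0.0501) and with the 20 most abundant genes left out (0.05). Leaving out each of 7 libraries in turn, all but WT replicate 4, lost it as well (0.0521 to 0.104). Gcat, the most abundant of this list per exon length in WT, though not in Wfs1KO, where Sptlc1 was higher, stood at -0.21 (adjusted p = 0.292). Atf4 stood at 379, 411, 397 and 378 CPM in Wfs1KO replicates 1 to 4, against 345, 310.1, 302 and 266 CPM in WT replicates 1 to 4, and rose by 0.35 (SE 0.07, adjusted p = 0.00395). Of the genes above, Fpgs, Slc1a4 and Slc1a5 did not pass in replicates 3 and 4 alone (adjusted p 0.168, 0.376 and 0.059). Mat2a and Atf4 did not pass in replicates 1 and 2 alone (0.0628 and 0.052). Slc46a1 passed in neither pair (0.208 in replicates 1 and 2, and 0.339 in replicates 3 and 4).

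**Figure D5:**
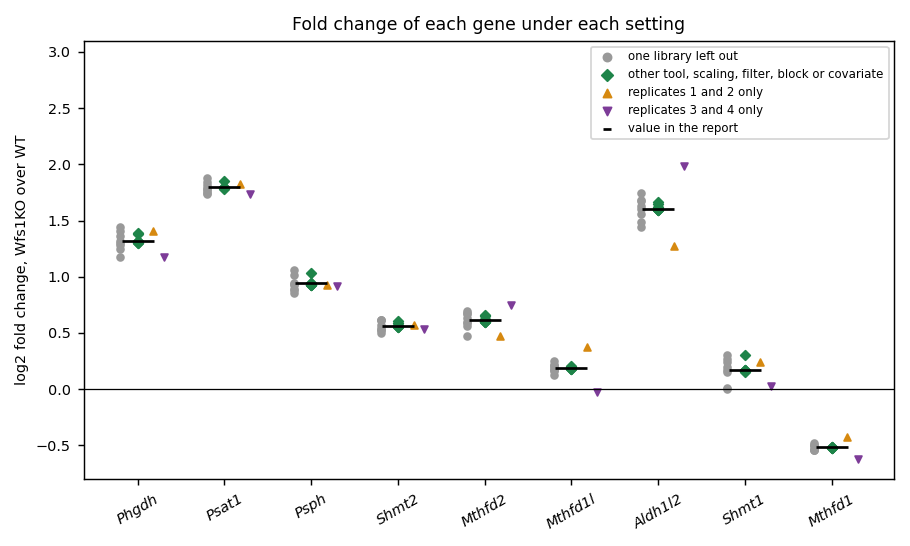
Log2 fold change of Wfs1KO over WT (vertical axis) of each of the 9 genes under every setting tried. The black bar is the value reported, grey points leave out 1 library each, green diamonds change the tool, scaling or filter or add a block or covariate, and triangles use replicates 1 and 2 (orange) or 3 and 4 (purple) alone. Psat1, Phgdh, Psph, Shmt2, Mthfd2 and Aldh1l2 stay above 0 and Mthfd1 stays below 0 in all of these settings, while Mthfd1l crosses 0 in replicates 3 and 4 alone.

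In the authors' deposited table the log2 fold changes, read as Wfs1KO over WT, were 1.64 for Psat1, 1.21 for Aldh1l2, 1.11 for Phgdh, 0.82 for Psph, 0.52 for Shmt2, 0.50 for Mthfd2, 0.17 for Mthfd1l, 0.10 for Shmt1 and -0.51 for Mthfd1. The adjusted p-values in the authors' deposited table were under the same threshold for the 7 genes called here (at most 0.0056, for Mthfd2) and above it for Mthfd1l (0.147) and Shmt1 (0.786).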

How the data were processed

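Polyadenylated RNA of 4 Wfs1KO and 4 WT islet samples was sequenced. The submitters' processing notes name STAR 2.6.0a, HOMER 4.11.1, DESeq2 and the mm10 build. The deposited raw counts are reads in exons per gene, with 1 condensed entry per gene and no strand option, per the file headers. The authors also deposited log2 fold changes and p-values of their own comparison, with settings that are not given in the sources used here. The sign of their fold changes was checked against the counts (2970 of 2970 called genes had the same sign). The transformed log2 values that the authors deposited per library were not used.

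The count model was edgeR 4.0.16 under R 4.3.3 (scaling by TMM, filterByExpr with minimum count 10 and minimum total count 15, quasi-likelihood F-test with robust=TRUE), and 15733 genes were tested, of which 2970 (18.9%) were called. SE is the fold change over the root of F. Library sizes of 15810830 to 27057617 and a biological coefficient of variation of 10.7% set the precision. Fits were tested on simulated data. Ratios between the 9 genes are given without the permutation tests planned for them, because the genes were chosen with results known. Alternatives were DESeq2 1.42.0, its size factors, limma-voom (limma 3.58.1), other filters, the 20 most abundant genes left out, a replicate block, and each of the 8 libraries omitted in turn. An acinar covariate and pairs of replicates were added after the data were seen. Named genes were the 9, up to 4 called and the most abundant gene per exon length in WT of each other list, Wfs1 and Atf4. Mthfd2l, Slc25a32, Aldh1l1, Bhmt, Sptlc1 and the overlapping genes were named after their values were seen. The 9 genes and the lists were chosen with earlier results of these data known, and 1 gene of the lists is not reported here. What a replicate number marks is not in the labels that give it. Deviations of same-numbered samples from their group means correlated across genes at 0.153, 0.443, 0.269 and 0.188. Samples with different numbers were not compared in this way, so these values cannot show whether the numbers pair samples. Every p-value is from a fit without pairing unless the replicate block is named. Nothing in the labels says that the samples are separate animals, and p-values measure the spread between these samples.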

Additional observations from a re-analysis of the deposited data

Results flagged for a closer look

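Within the Wfs1KO group, Mthfd2 stood out for 1 library. Replicate 3 had 108.5 CPM and the other 3 had 134.8 to 139.8 CPM, so that the gap below them made up 0.838 of the range of the group, above Dixon's 95% critical value for 4 samples. Of 18 groups checked in this way (9 genes in Wfs1KO and in WT) this was the 1 past the limit, and chance flags about 1 in 20. Without Wfs1KO replicate 3 Mthfd2 was still called (log2 fold change 0.68, adjusted p = 0.0261).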

How the results depend on the processing

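Each of the 9 genes was refitted under 18 alternatives. Of the 162 fold changes 149 kept their direction and their side of the threshold, 10 were no longer called, 2 became called and 1 changed sign. In replicates 3 and 4 alone 1846 genes were called instead of 2970, and Phgdh (1.18), Mthfd2 (0.745) and Aldh1l2 (1.985) no longer passed, while Mthfd1l turned to -0.022. The cause was not tested. In replicates 1 and 2 alone 2939 genes were called and Mthfd1l passed (0.38). Mthfd2 was not called with no filter on low counts (0.62) or with the replicate block (0.63), and the cause was not tested for either setting. With 1 library left out, Mthfd2 ran from 0.47 to 0.69. Mthfd1l ran from 0.12 to 0.25 when leaving out 1 library. The replicate block changed no other call among the 9. With 1 library left out, the log2 ratio of Mthfd2 to Mthfd1 differed by 0.94 to 1.25 and that of Mthfd1l to Mthfd1 by 0.66 to 0.75. The replicate block cannot change the differences of 1.14 and 0.70, since each genotype holds every replicate number once. Shmt1 had 15 to 71 counts per library, and its values and its ratio to Shmt2 are the least precise.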
